A study of Mus musculus with 4 samples.

Results

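The mouse genome holds 4 tropomyosin genes, *Tpm1*, *Tpm2*, *Tpm3* and *Tpm4*, and all 4 were followed here in myoblasts with reduced *Hnrnpl*. They are the whole gene family, taken by name. The deposited tables list 56748 gene IDs, of which the 4 genes were found by Ensembl ID after the version was dropped, and all 4 were among the 8670 genes with enough reads to be tested. RNA was read directly on nanopore flow cells from C2C12 cells, an established mouse myoblast line whose genotype is labelled WT. The control group (scrambled, n = 2) had received a scrambled shRNA and the knockdown group (n = 2) a cocktail of 3 shRNAs against *Hnrnpl*, which encodes the splicing regulator hnRNP L. Cells of both groups had been transfected with plasmids that also carried an eGFP reporter and were selected with puromycin. Both libraries of a group came from separate passages of 1 selected stable line, so the p-values below do not cover spread between independently made lines. The spread between passages used in the tests of single genes is partly shared over all genes tested. The labels give 2 batches, each holding 1 scrambled and 1 knockdown library, and the replicate number is the batch number.

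Tropomyosins are coiled-coil proteins that pair up and lie end to end along actin filaments. In striated muscle they carry the troponin complex, which sets when myosin can reach actin. In non-muscle cells and in myoblasts they coat the filaments of the cytoskeleton and set which other proteins can bind them. *Tpm1* and *Tpm2* are best known for their muscle forms, α- and β-tropomyosin, although both also make cytoskeletal forms. *Tpm3* makes a slow-muscle form and several cytoskeletal forms, and *Tpm4* is known mainly for short cytoskeletal forms. Each gene yields several proteins through alternative start sites, internal exons and last exons, and the counts used here are sums over all of these for each gene.

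The libraries held between 1229424 and 1676911 counted reads, at which 3 counts amount to between 1.79 and 2.44 CPM (reads scaled to the library total). Between 15.97% and 16.54% of all reads had been set aside as ambiguous between genes, and between 22.7% and 23.8% for low mapping quality. *Hnrnpl* itself fell by 0.78 on the log2 scale (SE 0.18, adjusted p = 0.0112 in edgeR's quasi-likelihood test with Benjamini-Hochberg adjustment), and lost the call without scrambled 2 (adjusted p = 0.194) or without knockdown 1 (adjusted p = 0.15). Of 6 myoblast markers, 5 had reads, with a summed level of 473 and 556 CPM in scrambled against 373 and 311 in knockdown. The defining markers *Myod1* and *Pax7* were nearly or fully absent, with at most 1 read and 0 reads in any library. Within that sum, *Cdh15* went from 113 and 152 reads to 25 and 14 and *Des* from 373 and 571 to 309 and 242, while *Myf5* had 157 and 190 against 158 and 113 and *Vcam1* 13 and 18 against 20 and 13. Of 8 markers of differentiated muscle only *Acta1*, *Mylpf* and *Tnnt3* had reads, and their sum was between 7.28 and 13.7 CPM. The sums for fibroblast (4.07 to 8.65), adipocyte (0 to 1.19) and macrophage markers (1.79 to 3.25) were low in every library. The neuron list moved with the groups through *Tubb3* alone, from 150 and 149 reads to 20 and 18, with 0 reads on *Rbfox3* and *Snap25*. Smooth muscle markers summed to 8393 and 6748 CPM in scrambled and to 2721 and 3345 in knockdown, nearly all of it *Acta2*, while the defining gene *Myh11* had 0 reads. The part of these shifts in the tropomyosin values was not tested, and in RNA from whole cultures fewer cells of a type cannot be told apart from less RNA per cell.

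*Tpm1* fell to 0.306 of its scrambled level. *Tpm2* had nearly the same mean in both groups but opposite directions in the batches. *Tpm3* was higher and *Tpm4* lower in both knockdown libraries, and neither passed the test. The mean normalized sum of the family differed by -6.27%, knockdown against scrambled, and its libraries overlapped between the groups. Of the 4 members 1 was called, and it was lower, where 5.55% of all genes tested were called, 2.33% higher and 3.22% lower. A gene was called when its adjusted p was under 0.05, its log2 fold change was over 0.5 in size and its mean normalized count was over 10. For 3 of the 4 members the scrambled and knockdown libraries did not overlap, which held for 52.4% of all genes tested.

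*Tpm1* (ENSMUSG00000032366.16) lies on the reverse strand at chr9:66929870-66956953 in GRCm39 and encodes α-tropomyosin. Its last exon separates its transcripts. Last exons are grouped here by the region of the gene they lie in. Of 44 coding transcripts in the GENCODE vM39 annotation, 29 end in a region whose furthest base lies 5300 bases before the 3′ end. Another 1 stops 6260 bases before it. The other 14 end in a region that reaches the 3′ end, but only 12 of them hold any of its last 370 bases. A coding exon near the end is shown for each kind because the counts add these transcripts together. The first stretch, chr9:66936945-66937024, closes the coding sequence of the single transcript and, but for its last base, is the last coding exon of at least 30 bases in 20 of the 29. Exons of 23 of the 29 hold these bases, and so does 1 of the 14. The second, chr9:66930644-66930723, is the last coding exon in 7 of the 14, is held by exons of 10 of them, and is in none of the other 30. Both are on the reverse strand and are written 5′ to 3′ along the RNA.
Tpm1 near last coding exon: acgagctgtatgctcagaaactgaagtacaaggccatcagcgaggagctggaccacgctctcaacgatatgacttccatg
Tpm1 distant last coding exon: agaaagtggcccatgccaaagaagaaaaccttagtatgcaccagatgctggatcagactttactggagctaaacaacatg

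The reads on *Tpm1* numbered 205 in scrambled 1, 255 in scrambled 2, 49 in knockdown 1 and 72 in knockdown 2. Scaled to the mean library size with TMM factors, the normalized counts were 214.6 and 214.5 in scrambled against 48.8 and 84.1 in knockdown. Both knockdown libraries were far below both scrambled libraries, and the scrambled libraries were nearly equal. The group means were 215 ± 0.0789 (SD, n = 2) for scrambled against 66.5 ± 24.98 (SD, n = 2) for knockdown. *Tpm1* fell by 1.71 on the log2 scale (SE 0.20, 95% interval -2.13 to -1.28), with an adjusted p of 4.06e-05 in edgeR's quasi-likelihood test over all genes. As a fold this is 0.306 of the scrambled level, between 0.228 and 0.411. Counted from the lowest log2 fold change, it ranked 68 of the 8670 genes. The log2 ratio was -2.14 in batch 1 and -1.35 in batch 2, lower in each batch but by different amounts. The knockdown libraries differed from each other 1.72-fold, a ratio reached by 1.75% of 2574 genes with a mean of at least 100 normalized counts in that group. The call held in 15 of 15 alternative settings, with log2 fold changes between -2.13 and -1.34.

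Genes on chromosome 9 had a median log2 fold change of -0.37, over 492 genes tested. With the median of each chromosome removed, *Tpm1* still fell by 1.34 on the log2 scale. Its nearest tested neighbours were *Lactb*, 47104 bases away, with 39 and 51 reads in scrambled against 24 and 21 in knockdown, and *Tln2*, which encodes the adhesion protein talin 2, 167416 bases away, with 46 and 81 reads against 34 and 26. Neither was called, with log2 fold changes of -0.79 (adjusted p = 0.106) and -0.86 (adjusted p = 0.056) in the same edgeR fit. The neighbours of the other members, *Arhgef39* and *Tln1* for *Tpm2*, *4933434E20Rik* and *Rps27* for *Tpm3*, and *Zfp961* and *Rab8a* for *Tpm4*, had log2 fold changes between -0.21 and 0.40 and were not called.

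**Figure D1:**
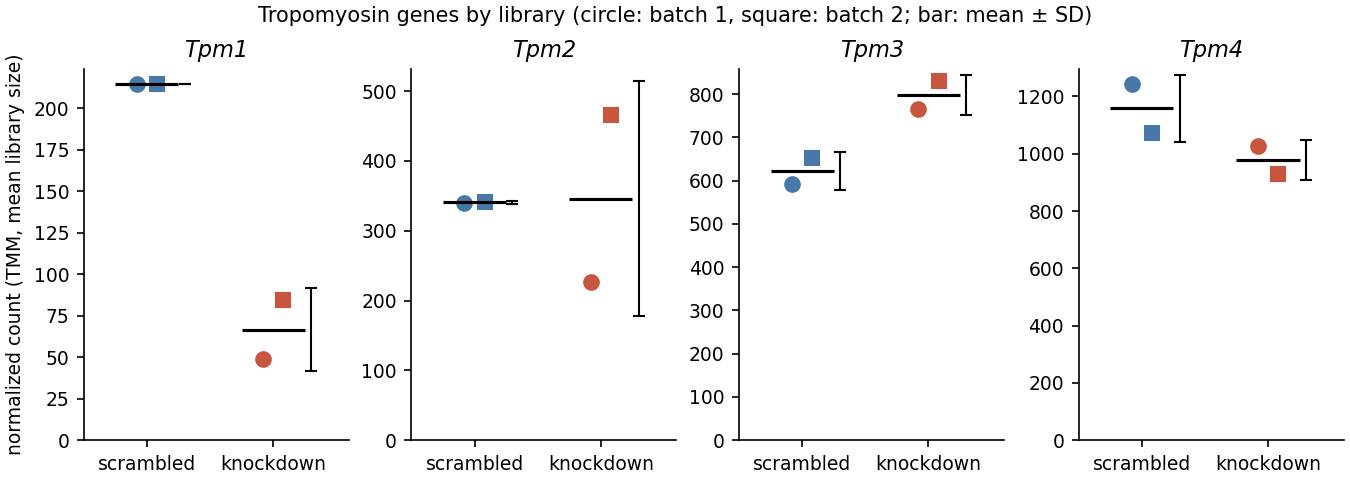
Normalized counts (y axis, TMM-scaled to the mean library size) of *Tpm1*, *Tpm2*, *Tpm3* and *Tpm4* in scrambled (blue) and knockdown (red) libraries, with batch 1 as circles, batch 2 as squares, a line at each mean and a bar of ± 1 SD (n = 2). *Tpm1* drops from 214.6 and 214.5 to 48.8 and 84.1, while the knockdown libraries of *Tpm2* lie on either side of the scrambled ones.

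*Tpm2* (ENSMUSG00000028464.17), at chr4:43514697-43524949 on the reverse strand of GRCm39, encodes β-tropomyosin. Reads on it numbered 324 and 406 in the scrambled libraries and 228 and 398 in knockdown 1 and 2. The normalized counts were 339 and 342 in scrambled against 227 and 465 in knockdown. The scrambled libraries agreed closely, and the knockdown libraries lay below and above them. The means were 340 ± 1.65 (SD, n = 2) and 346 ± 168 (SD, n = 2), and the log2 fold change was 0.02 (SE 0.22, 95% interval -0.44 to 0.47, adjusted p = 0.98 in edgeR). As folds, this edgeR interval runs from 0.739 to 1.38, and it rests on a spread partly shared over all genes tested. With DESeq2 the log2 fold change was also 0.02, but its SE was 0.50, so the edgeR interval is not a limit on the change. Without knockdown 2 the log2 fold change was -0.58, outside that interval, and without knockdown 1 it was 0.45, inside it. The log2 ratio was -0.58 in batch 1 and 0.45 in batch 2. The 2.05-fold gap between the knockdown libraries was matched or exceeded by 15 of 2574 genes, or 0.583%, against a median ratio of 1.11. *Tpm1* and, by a smaller ratio (1.09-fold), *Tpm3* were also lower in knockdown 1 than in knockdown 2, whereas *Tpm4* was higher there.

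*Tpm3* (ENSMUSG00000027940.19), at chr3:89979949-90008226 on the forward strand of GRCm39, makes slow-muscle and cytoskeletal γ-tropomyosin. Its reads were 565 and 776 in scrambled against 768 and 711 in knockdown, and its normalized counts were 592 and 653 in scrambled against 765 and 831 in knockdown. Both knockdown libraries were above both scrambled libraries. The means were 622 ± 43.3 (SD, n = 2) and 798 ± 46.5 (SD, n = 2), with a log2 fold change of 0.36 (SE 0.14, 95% interval 0.07 to 0.64). The unadjusted p was 0.0164 and the adjusted p was 0.126 in edgeR's test over all genes, so *Tpm3* was not called. The log2 ratio was 0.37 in batch 1 and 0.35 in batch 2. Over 15 other settings its adjusted p ranged from 0.0946 to 0.663 and the log2 fold change between 0.26 and 0.42. The tropomyosin pseudogene *Tpm3-rs7* had 3 and 4 reads in scrambled against 4 and 1 in knockdown, and *Tpm3-rs2* had 0 in every library.

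*Tpm4* (ENSMUSG00000031799.11), at chr8:72884018-72906987 on the forward strand of GRCm39, makes short cytoskeletal tropomyosin and had the most reads of the family in every library. The reads were 1186 and 1277 in scrambled against 1032 and 794 in knockdown, or normalized counts of 1242 and 1074 in scrambled against 1028 and 928 in knockdown. The groups did not overlap, but the gap between scrambled 2 and knockdown 1 was small. The means were 1158 ± 118 (SD, n = 2) and 978 ± 70.9 (SD, n = 2), and the log2 fold change was -0.24 (SE 0.14, 95% interval -0.53 to 0.05, adjusted p = 0.327 in edgeR). The log2 ratio was -0.27 in batch 1 and -0.21 in batch 2. Its adjusted p ranged from 0.29 to 0.958 over 15 other settings, and the log2 fold change from -0.35 without scrambled 2 to -0.14 without scrambled 1.

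**Figure D2:**
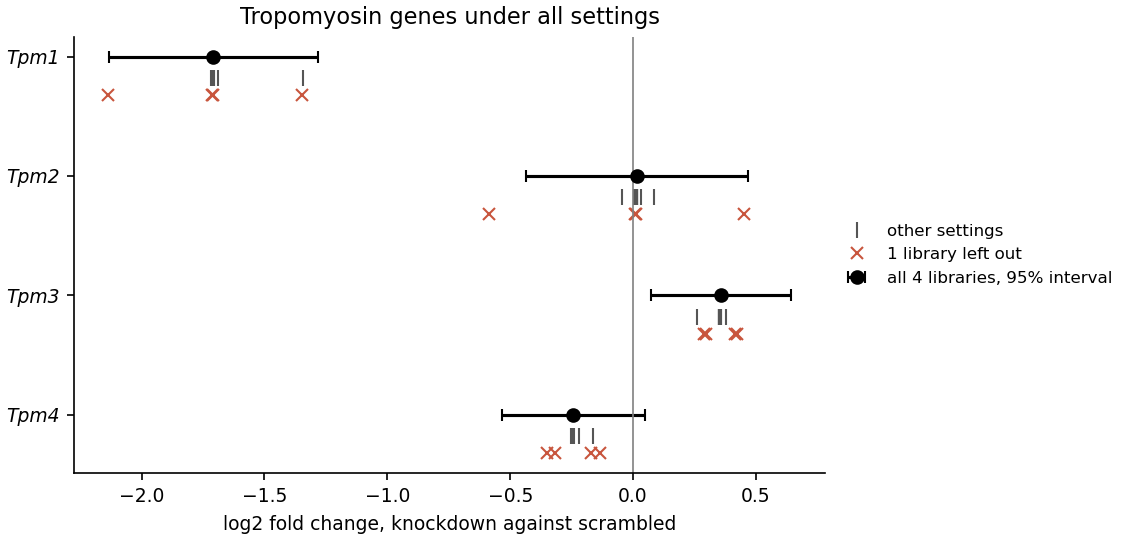
Log2 fold change of knockdown against scrambled (x axis) for the 4 genes, with the 95% interval of the fit on all 4 libraries (black), the settings that change the normalization, filter, test or design (grey ticks) and the fits that leave out 1 library (red crosses). *Tpm1* stays between -2.13 and -1.34, and *Tpm2* crosses 0.

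By reads the order of the family was *Tpm4*, *Tpm3*, *Tpm2*, *Tpm1* in all 4 libraries. Levels were also divided by the length of the union of annotated exons, which ranged from 4237 bases for *Tpm2* to 8117 for *Tpm3*. In direct RNA sequencing every read begins at the 3′ end of its RNA, so read counts need not grow with exon length. The division can therefore shift the order of genes, and the order by reads does not depend on it. In reads per kilobase on the CPM scale (RPKM), *Tpm4* was again highest, between 141 and 187, and *Tpm1* was lowest, at 18.3 and 18.8 in scrambled against 4.41 and 7.25 in knockdown. *Tpm2* and *Tpm3* lay between them on that scale. Their levels were 55.1 and 50.2 in scrambled 1, 57.1 and 57.0 in scrambled 2, 39.2 and 68.8 in knockdown 1, and 76.4 and 71.3 in knockdown 2, for *Tpm2* and *Tpm3* in turn. On that scale *Tpm2* was the higher of these neighbours in both scrambled libraries, where their ranges overlapped, and the order changed between the knockdown libraries. By reads, with no division by length, *Tpm3* was above *Tpm2* in every library.

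As a share of the reads on all 4 genes, *Tpm1* made up 8.99% (95% exact binomial interval 7.85 to 10.2) of 2280 reads in scrambled 1 and 9.40% (8.32 to 10.6) of 2714 in scrambled 2. In knockdown it made up 2.36% (1.75 to 3.11) of 2077 reads and 3.65% (2.86 to 4.57) of 1975. These intervals cover counting error only, and the intervals of the scrambled libraries lie above those of the knockdown libraries. The share of *Tpm3* went the other way, from 24.8% and 28.6% in scrambled to 37.0% and 36.0% in knockdown, again without overlap. *Tpm2* held 14.2% and 15.0% in scrambled against 10.98% and 20.2% in knockdown, so its knockdown shares stood on both sides of the scrambled ones. *Tpm4* held 52.0% and 47.1% in scrambled against 49.7% and 40.2% in knockdown, and these overlapped. The mean shares differed, knockdown minus scrambled, by -6.19 points for *Tpm1*, 0.98 for *Tpm2*, 9.80 for *Tpm3* and -4.59 for *Tpm4*. Without knockdown 2 the differences of *Tpm2* and *Tpm4* were -3.61 and 0.15, and without knockdown 1 they were 5.57 and -9.33. With 2 libraries against 2, an exact two-sided permutation test cannot go below 0.333, and it gave 0.333 for *Tpm1* and *Tpm3*, 1 for *Tpm2* and 0.667 for *Tpm4*. Per kilobase of exon the differences were -4.07, 1.56, 6.88 and -4.38 points in the same order of genes. That scale takes reads to grow with exon length, which direct RNA reads need not do.

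**Figure D3:**
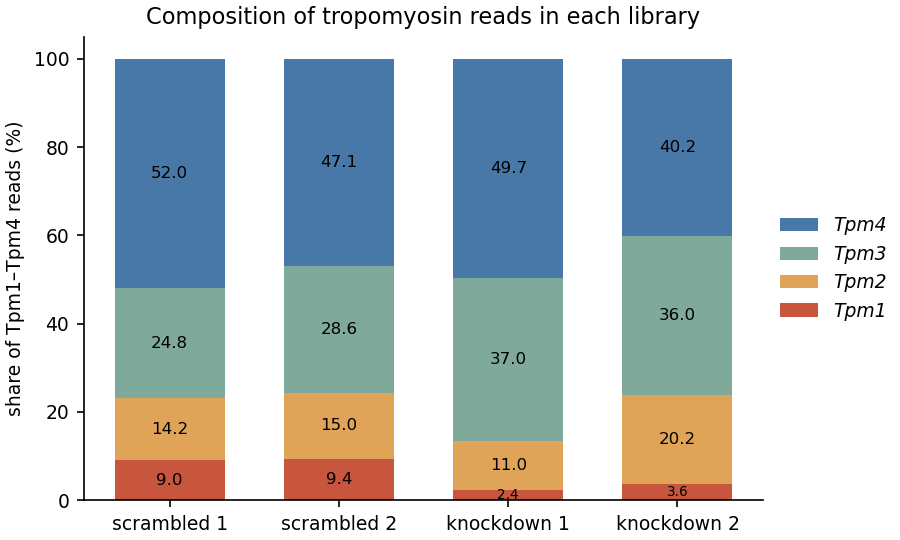
Share of the reads on the 4 tropomyosin genes (y axis, %) taken by each gene in each library (x axis). The *Tpm1* band narrows from 8.99% and 9.40% in scrambled to 2.36% and 3.65% in knockdown, the *Tpm3* band widens from 24.8% and 28.6% to 37.0% and 36.0%, and the *Tpm2* band is 10.98% in knockdown 1 and 20.2% in knockdown 2.

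Ratios within a library need no scaling between libraries. For every read on *Tpm1* the scrambled libraries had 2.76 and 3.04 reads on *Tpm3*, and the knockdown libraries had 15.7 and 9.88. The ratio of *Tpm4* to *Tpm1* was 5.79 and 5.01 in scrambled against 21.1 and 11.03 in knockdown. *Tpm2*, the other muscle-type gene, gave 1.58 and 1.59 reads per *Tpm1* read in scrambled and 4.65 and 5.53 in knockdown, so this ratio was closer between the knockdown libraries than either gene's own level. The ratio of *Tpm4* to *Tpm3* was 2.10 and 1.65 in scrambled against 1.34 and 1.12 in knockdown. The groups did not overlap in these ratios, of which 3 share *Tpm1* as their denominator, and single genes did not overlap in 52.4% of all genes tested.

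The summed normalized count of the family was 2387 and 2283 in scrambled against 2069 and 2308 in knockdown, which overlapped. The means were 2335 ± 73.5 (SD, n = 2) and 2189 ± 169 (SD, n = 2), a log2 ratio of -0.09 where the spread within groups was 0.09 (SD, log2). The log2 ratio was -0.21 in batch 1 and 0.02 in batch 2, and with 1 library left out it lay between -0.17 (without knockdown 2) and -0.02 (without knockdown 1). In normalized counts, the knockdown mean minus the scrambled mean was -148 for *Tpm1* and -179.9 for *Tpm4*, and 176 for *Tpm3* and 5.70 for *Tpm2*. The sum over the chosen genes was given no test.

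Reads can be lost where genes share sequence or position. As a check of shared sequence, the annotated coding transcripts, 44 of *Tpm1*, 29 each of *Tpm2* and *Tpm3* and 6 of *Tpm4*, were mapped whole to GRCm39 with minimap2. All were placed on their own gene with a mapping quality of at least 51. Truncated reads and reads with errors were not checked in this way. The lncRNA gene *Gm30639*, on the opposite strand at chr9:66913085-66930239, shares 370 exon bases with the 3′ end of *Tpm1*. Of the 44 coding transcripts of *Tpm1*, 12 include shared bases. All of these are among the 14 that end in the region nearest the 3′ end. *Gm26586*, also a lncRNA gene on the opposite strand, shares 161 exon bases with *Tpm4*, at chr8:72892405-72892565, within all 6 coding transcripts. Neither lncRNA gene had a read in any library. The sources used here do not give the strand setting or mode of the counting, or the annotation release. Depending on the mode, a count that ignores strand can set aside a read that touches both genes, and in direct RNA sequencing every read begins at the 3′ end of its RNA. From the same sequencing the authors report differential splicing of *Tpm1*, found by both their transcript and their exon analysis. How far a shift between last exons entered the *Tpm1* values was not tested, since only counts per gene were analysed here.

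**Figure D4:**
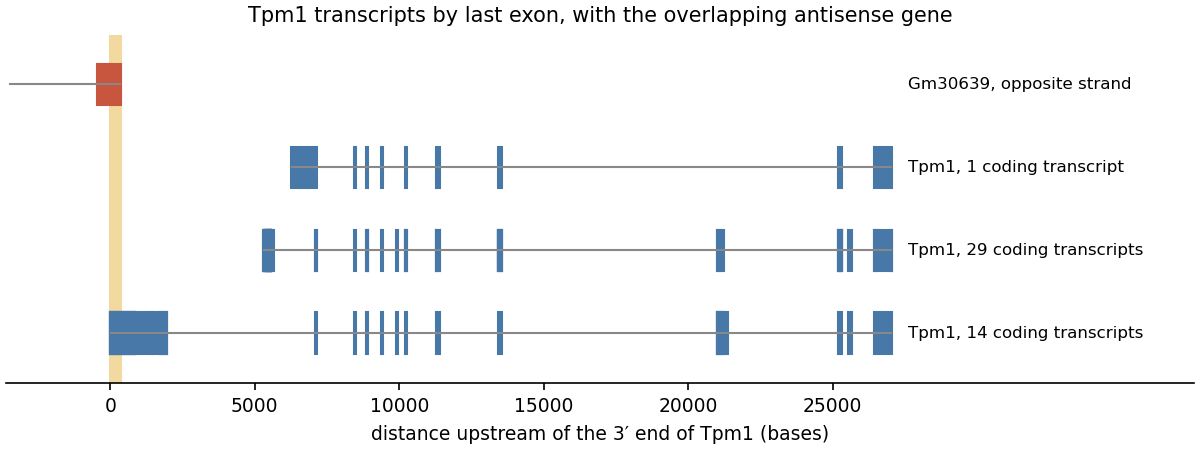
Exons (boxes) of the coding *Tpm1* transcripts, merged by which last exon they use (blue, 3 rows), and of *Gm30639* on the opposite strand (red, cut at the left), by distance upstream of the 3′ end of *Tpm1* (x axis, bases; transcription runs from right to left for *Tpm1*). The shaded bases at the 3′ end fall in exons of both genes and are reached by 12 of the 14 transcripts of the lowest row.

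The RefSeq promoter table (GRCm38.p6) had an entry for each of the 4 genes, and 2 for *Tpm3*. Alternative start sites without an entry there were not searched. The 250 bases before the start sites of the muscle-type genes *Tpm1* and *Tpm2* are shown, since *Tpm1* fell and *Tpm2* was not called. They lie at chr9:67049214-67049463 and chr4:43523555-43523804 of GRCm38.p6, both on the reverse strand. Capitals mark matches to the E-box (CANNTG, the motif read by myogenic bHLH factors) and to the MCAT motif (GGAATG, the motif read by TEAD factors).
Tpm1 promoter: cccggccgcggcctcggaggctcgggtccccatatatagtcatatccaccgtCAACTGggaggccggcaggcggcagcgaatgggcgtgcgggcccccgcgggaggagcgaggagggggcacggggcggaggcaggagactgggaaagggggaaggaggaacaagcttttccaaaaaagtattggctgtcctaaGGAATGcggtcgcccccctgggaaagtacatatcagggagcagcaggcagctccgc
Tpm2 promoter: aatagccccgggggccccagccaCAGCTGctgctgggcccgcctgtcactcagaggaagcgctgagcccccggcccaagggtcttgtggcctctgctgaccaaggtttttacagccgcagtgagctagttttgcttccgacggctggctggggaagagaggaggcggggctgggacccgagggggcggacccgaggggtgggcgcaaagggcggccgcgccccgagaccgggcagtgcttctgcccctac
The windows of *Tpm1*, *Tpm2* and both *Tpm3* starts held 1 E-box each and that of *Tpm4* none, where 66.2% of 32851 promoters of the same length held at least 1. An MCAT match was found before *Tpm1* alone, 56 bases before the start, and 12.6% of all promoters held one. No window held a CArG box, the SRF motif, which 1.47% of all promoters held. The GC box GGGCGG was found 1 time before *Tpm1*, 2 times before *Tpm2*, 1 time before the second *Tpm3* start and 5 times before *Tpm4*, where 32.7% of all promoters held it. Both strands were searched and no match overlapped one of another motif. These are matches of letters in a window and say nothing of whether a factor bound there.

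CA-rich RNA is the known target of hnRNP L, so the sense strand of each gene was searched for CACACACA, without overlap between matches. *Tpm1* held 1 match over its 27084 bases, and 93.8% of 1261 tested coding genes with a length within 0.8 to 1.25 times its own held at least as many. *Tpm3* held 2, a number reached by 86.8% of genes of like length. *Tpm4* held 8, reached by 29.1%, and *Tpm2* held 5 in the shortest span of the 4, reached by 16.1%. The longest run of alternating A and C in each gene is shown in capitals with 10 bases on either side, along the RNA, in GRCm39. With these flanks the stretches lie at chr9:66937782-66937810 for *Tpm1*, chr4:43522869-43522912 for *Tpm2*, chr3:89990069-89990103 for *Tpm3* and chr8:72887237-72887275 for *Tpm4*. The run of *Tpm1* is in no exon of the 44 coding transcripts and in an exon of 3 others among the 80 annotated, and the runs of the other genes are in no annotated exon.
Tpm1 longest CA run: caacaaaaatCACACACACcacgcatcac
Tpm2 longest CA run: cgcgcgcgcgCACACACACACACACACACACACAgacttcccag
Tpm3 longest CA run: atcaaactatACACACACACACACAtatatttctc
Tpm4 longest CA run: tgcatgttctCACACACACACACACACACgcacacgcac
With 4 genes these counts are a description, and binding of hnRNP L was not measured here.

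The proteins that work with tropomyosin were followed through lists of 49 genes, of which 40 had reads and 32 were tested. The lists were chosen with earlier results of these data known, so counts over them are a description. In these lists 1 gene was called higher and 5 lower, where 2.33% of all genes tested were called higher and 3.22% lower. Before adjustment 14 of the 32 had a p under 0.05, as did 21.8% of all genes tested, and the median log2 fold change was -0.14 over the lists against -0.00059 over all genes tested. Among 6 actin genes, the filament that tropomyosin coats, *Acta2* (smooth muscle α-actin) had 11542 and 11205 reads in scrambled against 3668 and 4067 in knockdown. It fell by 1.36 in log2 units (SE 0.17, adjusted p = 7.06e-05 in edgeR). *Actg2* (smooth muscle γ-actin) had 4 and 3 reads in scrambled against 15 and 21 in knockdown and rose by 2.53 (SE 0.52, adjusted p = 0.00635 in edgeR), and the call was lost in 6 of 14 alternatives, among them those without scrambled 2 or knockdown 2. Its coding sequence is nearly the same as that of *Acta2*, which makes the assignment of its reads uncertain, and this was not tested. The cytoskeletal actins *Actb* and *Actg1* had log2 fold changes of 0.11 and -0.21 and were not called.

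Among the troponin, pointed-end and side-binding genes, which bind along or cap the tropomyosin-coated filament, 0 were called by edgeR, where 5.55% of all genes tested were, and 4 had an unadjusted p under 0.05, none of which DESeq2 called. Of 8 troponin genes only *Tnnc1* and *Tnnt2* were tested, and *Tnnt2*, which links troponin to tropomyosin, had 148 and 154 reads in scrambled against 136 and 251 in knockdown (log2 fold change 0.58, adjusted p = 0.164 in edgeR). Its normalized counts were 136 in knockdown 1 and 293 in knockdown 2, a gap in the same direction as that of *Tpm2*. It was called with no filter on low counts (0.58, adjusted p = 0.0282), without scrambled 1 (0.71, adjusted p = 0.033) and without knockdown 1 (1.05, adjusted p = 0.00806), and stood at -0.07 without knockdown 2. Of 7 pointed-end genes, *Tmod3* (tropomodulin 3) was the only one tested, with a log2 fold change of -0.38 (adjusted p = 0.236 in edgeR). Of the 6 side-binding genes tested, those with an unadjusted p under 0.05 were *Cald1* (caldesmon, 0.38), *Cnn1* (calponin 1, -1.49) and *Dbn1* (drebrin, -0.76), with adjusted p-values in edgeR of 0.105, 0.057 and 0.111. *Cnn1* was called with the replicate block (adjusted p = 0.0144), with no filter on low counts (-1.49, adjusted p = 0.00266) and without scrambled 2 (log2 fold change -2.03, adjusted p = 0.00025), and stood at -0.78 (adjusted p = 0.485) without scrambled 1. *Dbn1* was called without scrambled 1 (-0.93, adjusted p = 0.0469) and without knockdown 2 (-1.17, adjusted p = 0.0419), and stood at -0.41 (adjusted p = 0.507) without knockdown 1.

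Severing proteins and motors compete or work with tropomyosin on the filament, and 2 of 8 were called, both lower, where 3.22% of all genes tested were called lower. *Myl9*, a regulatory light chain of smooth and non-muscle myosin, had 83 and 78 reads in scrambled against 13 and 21 in knockdown and fell by 2.04 in log2 units (SE 0.30, adjusted p = 0.000381 in edgeR). *Cfl1*, the filament-severing protein cofilin 1, fell by 0.53 (SE 0.15, adjusted p = 0.0391 in edgeR) and lost the call without scrambled 1, scrambled 2 or knockdown 2 (adjusted p = 0.2, 0.0654 and 0.102), with the replicate block (0.075) and with chromosome medians removed (0.36). *Myh9*, the heavy chain of non-muscle myosin IIA, had a log2 fold change of -0.33 (adjusted p = 0.22 in edgeR), which was -0.08 without scrambled 2 and -0.55 without scrambled 1.

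Among 8 RNA-binding proteins known to act on tropomyosin pre-mRNA, 7 were tested and 2 were called, both lower, against the same 3.22% of all genes tested. *Mbnl2*, a muscleblind splicing factor, had 258 and 375 reads in scrambled against 138 and 128 in knockdown and fell by 1.03 in log2 units (SE 0.16, adjusted p = 0.000577 in edgeR). *Ptbp2*, a polypyrimidine tract-binding protein, had 134 and 163 reads in scrambled against 79 and 62 in knockdown and fell by 0.87 (SE 0.17, adjusted p = 0.00458 in edgeR), a call lost in 2 of 15 alternatives. *Mbnl1* had a log2 fold change of 0.47 (adjusted p = 0.045 in edgeR), under the 0.5 that a call needed, and its adjusted p was under 0.05 in 5 of 15 alternatives, none of them with a library left out. *Hnrnph1* and *Hnrnpf* had log2 fold changes of -0.32 and 0.30 (adjusted p = 0.175 and 0.21 in edgeR), or -0.21 and 0.02 with chromosome medians removed. *Ptbp1* had 2 to 3 reads in each library and was not tested. Of the transcription factor SRF and its cofactors, which drive many actin and tropomyosin genes, *Srf* (-0.24), *Mrtfa* (0.62) and *Mrtfb* (0.64) were tested and none was called, and *Myocd* had 0 reads.

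**Figure D5:**
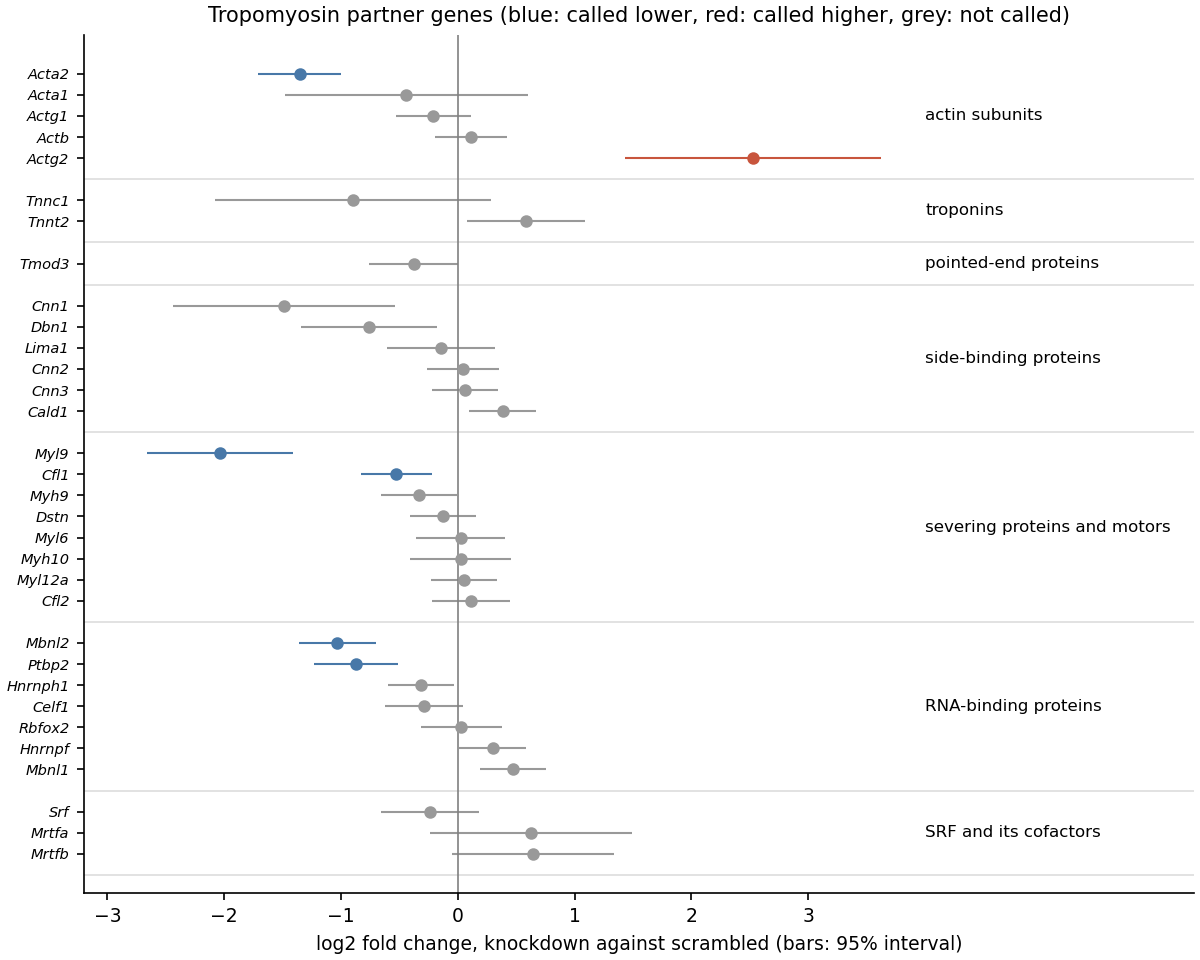
Log2 fold change of knockdown against scrambled (x axis) with its 95% interval for the 32 partner genes tested, grouped by list. *Acta2*, *Myl9*, *Cfl1*, *Mbnl2* and *Ptbp2* were called lower (blue) and *Actg2* higher (red), and the other 26 genes (grey) were not called.

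The genes with the most similar pattern were found by the distance between centred log2 normalized counts over the 4 libraries, among 4501 genes with a mean of at least 50. Nearest to *Tpm1* were *Igfbp2*, *Apol9a* and *R3hcc1*, at distances of 0.35, 0.35 and 0.49, and all 3 were called lower. Nearest to *Tpm2* were *Chmp2a*, *Sap30l* and *Adam12*, each with knockdown libraries on both sides of the scrambled ones. Those nearest to *Tpm3* were *Impdh1*, *Cul1* and *Rhoq*, and those nearest to *Tpm4* were *Gm10039*, *Top1* and *Oxct1*, none of them called. The distances for these were between 0.02 and 0.14. With 4 libraries such likeness is a description.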

How the data were processed

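Nanopore direct RNA reads of 4 libraries were used. Basecalling was done by the authors in guppy and mapping to GRCm39 in minimap2 2.17, and the deposited values are whole counts per gene from HTSeq 0.9.1, with no normalization. The counting mode, strand setting and annotation release are not given in the sources used here. Of 56748 gene IDs, 56017 were found in GENCODE vM39. The 5 lines of unassigned reads were left out of library sizes and tests.

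The 4 libraries were fitted together by the quasi-likelihood test of edgeR 4.0.16 under R 4.3.3, after filterByExpr and with TMM factors. Benjamini-Hochberg adjustment was made over 8670 genes. The authors used DESeq2 in 4 configurations, which were run as alternatives in version 1.42.0. The fitting script was checked on simulated data. Promoter windows came from RefSeq (GRCm38.p6) and transcripts were mapped with minimap2 2.31.

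The members, partner lists and marker lists were chosen with earlier results of these data known. Partner genes were named when called or with an unadjusted p under 0.05, and a few other list members after their values were seen, and neighbours and nearest patterns by distance. The batch labels pair the libraries, although the deviations of libraries numbered 1 had a correlation of 0.00110 over 6166 genes. Transcript, exon and qPCR data were not analysed here.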

Additional observations from a re-analysis of the deposited data

Results flagged for a closer look

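*Tpm2* moved in opposite directions in the 2 batches. Its log2 ratio of knockdown to scrambled was -0.5786 in batch 1 and 0.4456 in batch 2. Each batch holds 1 library of each group, so the difference between batches was not tested.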

How the results depend on the processing

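The direction and the call of *Tpm1* held in all 15 alternative settings, and *Tpm3* and *Tpm4* kept their directions and were not called in any. *Tpm2* was at -0.0455 with the replicate block and between -0.58 and 0.45 when 1 library was left out, and *Tnnt2* between -0.0657 and 1.05. The replicate block, which pairs libraries by batch, took the call from *Cfl1* (adjusted p = 0.075 in edgeR) and the adjusted p of *Mbnl1* over the threshold (0.0884), gave *Cnn1* one (0.0144), and changed no other call among the tropomyosin genes, *Hnrnpl* and the partner genes called or with an unadjusted p under 0.05. *Hnrnpl* was at -0.78 with an adjusted p of 0.0567 (Wald) and 0.067 (likelihood ratio) in DESeq2 with the parametric fit, and between -1.03 and -0.48 with 1 library left out. Leaving out 1 library put the share of *Tpm2* between -3.61 and 5.57 points and that of *Tpm4* between -9.33 and 0.15, with the sign turned without knockdown 2. The calls over all genes numbered 481, and 612 of 16728 tested with no filter, 452 to 484 with other factors, a stricter filter, the replicate block or mitochondrial genes and *Rn18s* left out, 228 and 115 with DESeq2's Wald test (local and parametric fit), 222 and 112 with its likelihood-ratio test, 285 with chromosome medians removed, and 194 to 433 with 1 library left out, the lowest without knockdown 1. The causes were not tested.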
